A study of Mus musculus with 10 samples.

Results

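WDR5 was depleted in primary mouse hepatocytes with a short hairpin RNA (shWDR5), and the 3 shWDR5 samples were compared with 4 samples that carried a non-specific hairpin (shNS), 7 of the 10 samples of the series. They were chosen by hairpin alone, with no measured value, and they were fitted with treatment as a covariate. Hepatocytes of 10-week-old male C57BL6/J mice were kept in Medium 199, transduced with adenovirus at 2 to 4 plaque-forming units per cell for 72 hours, and then given 100 nM glucagon or phosphate-buffered saline (PBS) for 90 minutes. The shNS arm held samples A and B in PBS and A and B with glucagon, and the shWDR5 arm held sample A in PBS and samples A and B with glucagon. The other 3 samples carried a hairpin against Kat2b (shKAT2B) in the same layout as shWDR5, and enter only where the hairpins are set against each other. All groups carry an adenovirus and a hairpin, so cells without either are not part of the comparison. Each sample pooled RNA of 3 dishes, 1 hairpin per target was used, and nothing in the labels says that A and B came from separate animals, so every p-value reflects the spread among these pools only. RNA was measured on Affymetrix Mouse Gene arrays, and values below are log2 of the deposited intensity. Sample medians lay between 8.14 and 8.22 on that scale. Albumin (Alb), a defining hepatocyte product, stood at 13.37 to 13.84 in all 10 samples.

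WDR5 is a WD40-repeat protein that scaffolds the MLL and SET1 histone methyltransferase complexes together with RBBP5, ASH2L and DPY30. These complexes methylate lysine 4 of histone H3, a mark of promoters and enhancers of active genes. WDR5 also sits in acetyltransferase complexes and binds the transcription factor MYC, whose best known targets are genes of ribosome assembly and cell growth. In the liver, glucagon is the fasting hormone that raises cyclic AMP and turns on genes of glucose production.

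Wdr5 itself was lower in every shWDR5 sample. It stood at 8.19 in PBS and at 8.32 and 8.40 with glucagon, against 10.05, 10.05, 9.99 and 10.06 in shNS PBS A, PBS B, glucagon A and glucagon B. The arms lay far apart in both treatments, a difference of -1.74 ± 0.08 (standard error, 3 against 4 samples), or 3.35-fold lower (limma, Benjamini-Hochberg adjusted p = 0.000826). Kat2b differed by 0.11 ± 0.07 (adjusted p = 0.406), and Wdr5 in the 3 shKAT2B samples stood at 10.07, 9.98 and 10.07. Protein was not measured here, and with a single hairpin, loss of WDR5 and anything else this hairpin does cannot be told apart.

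**Figure D1:**
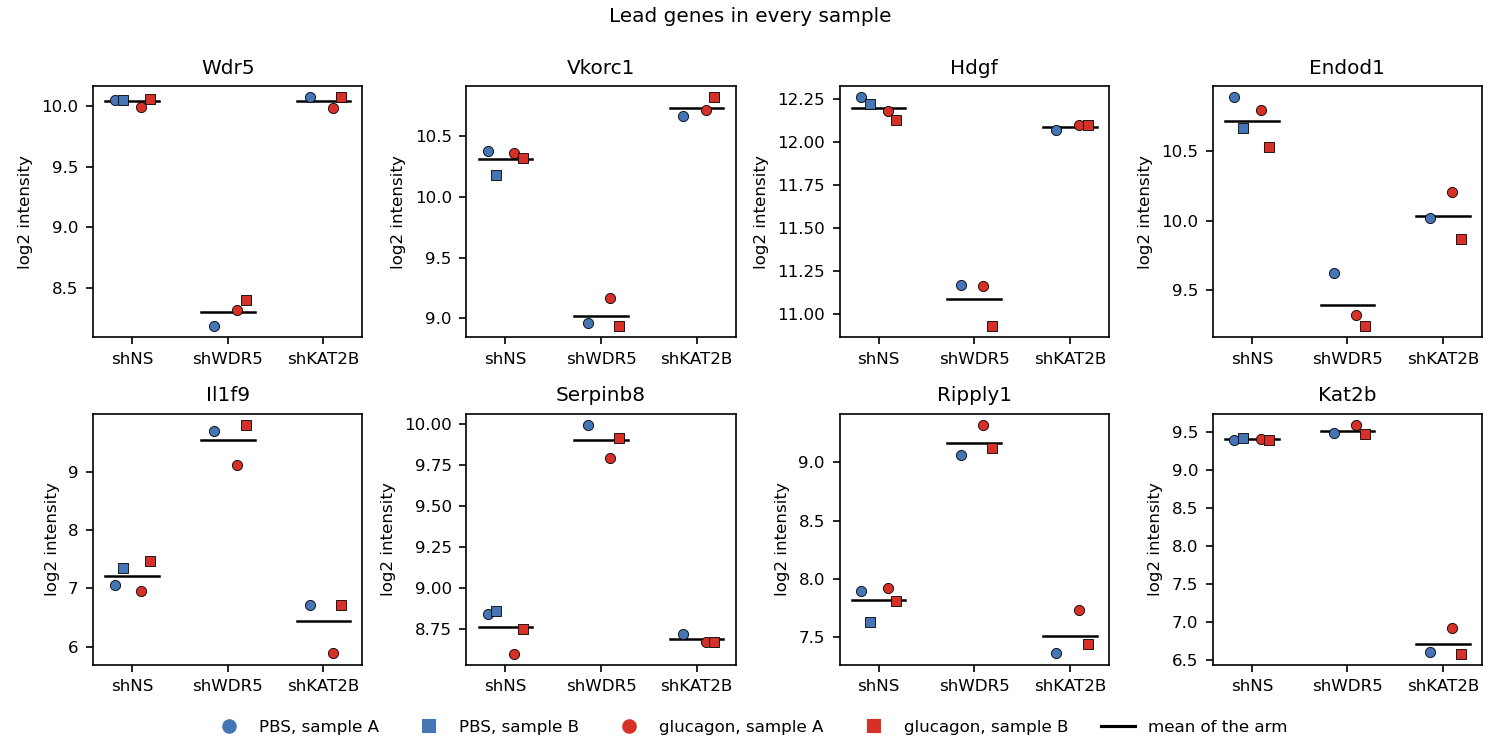
Log2 intensity (y axis) of 8 genes in every sample, by hairpin (x axis). Blue is PBS, red is glucagon, circles are samples A, squares samples B, and black lines are arm means. Wdr5 falls from 10.04 to 8.30 between the shNS and shWDR5 means, and the shWDR5 points of the first 7 genes lie apart from all shNS points.

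Over all genes, 813 of 11480 tested passed an adjusted p below 0.05 (7.08 percent), 348 of them higher in shWDR5 (3.03 percent) and 465 lower (4.05 percent). Most of these differences were small. The median size among called genes was 0.46 on the log2 scale, against 0.12 over all genes, and 19 genes were higher and 16 lower by at least 2-fold. Arms did not overlap within either treatment, in the same direction, for 3526 genes (30.7 percent), among them all 813 called. With the sample letter as a block 3142 genes were called (27.4 percent), 1322 higher (11.5 percent) and 1820 lower (15.9 percent), and all 813 were among them. The samples also fell into 2 sets by the first principal component of the residuals. The first set held shNS PBS A, shNS glucagon A and shWDR5 glucagon A, and the second the other 4, with shWDR5 PBS A closest to the boundary. With this set as a term 4648 genes were called (40.5 percent; 21.1 percent higher and 19.4 percent lower), again with all 813, and the share higher moved from 42.8 to 52.1 percent.

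The count of 813 rests on few samples. Leaving out shNS PBS A gave 396 calls, shNS PBS B 294, shNS glucagon A 30 and shNS glucagon B 220, and leaving out shWDR5 glucagon A gave 647 and glucagon B 46. Without shWDR5 PBS A, which leaves 2 samples and a single treatment in that arm, Wdr5 alone passed. The 84 called genes that meet the naming rule given with the processing kept their sign in every alternative fit that tested them. Those filtered out with the lowest 50 percent of genes were not tested there. The small nucleolar RNA and microRNA genes named at the end are outside this count.

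**Figure D2:**
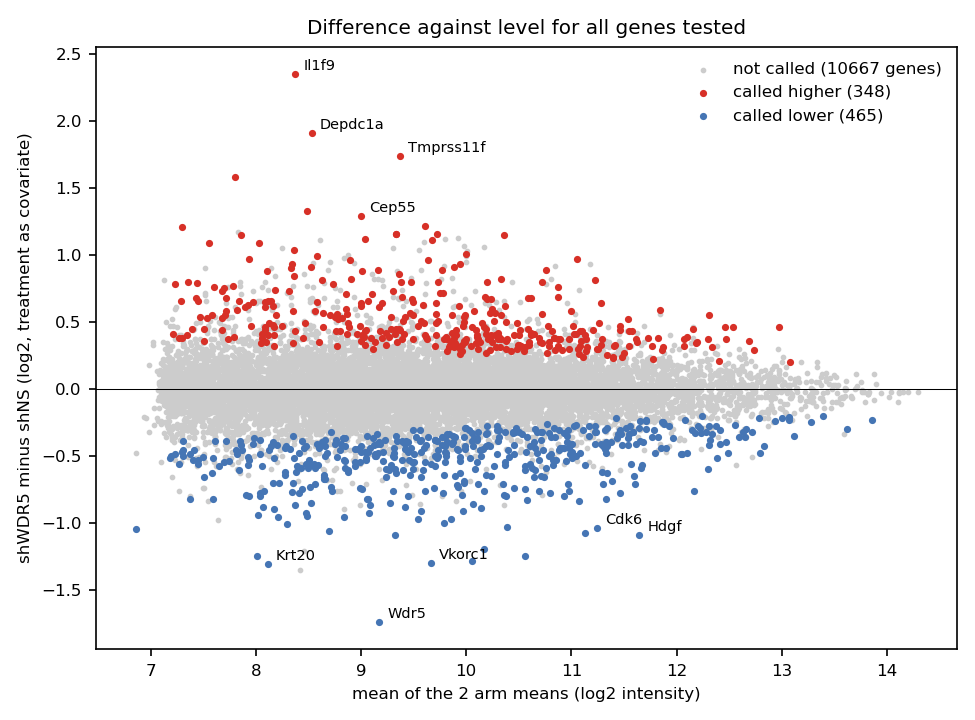
Difference between shWDR5 and shNS (log2, y axis) against the mean of both arm means (log2 intensity, x axis) for 11480 genes. Red marks the 348 genes called higher, blue the 465 called lower and grey the 10667 not called; Il1f9 and Wdr5 lie at the ends.

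Among the genes that fell, Vkorc1, Hdgf and Endod1 followed Wdr5 most closely in the separation of the arms. Vkorc1, the vitamin K epoxide reductase that recycles the cofactor of clotting factor carboxylation and is the target of warfarin, stood at 8.96, 9.17 and 8.94 in shWDR5 PBS A, glucagon A and glucagon B. In shNS it stood at 10.38, 10.18, 10.36 and 10.32, so the highest shWDR5 value was about 1 unit below the lowest shNS value. That was -1.30 ± 0.09 or 2.46-fold lower (adjusted p = 0.00391). Hdgf, a heparin-binding growth factor first isolated from hepatoma cells, stood at 11.17, 11.16 and 10.93 against 12.26, 12.22, 12.18 and 12.13, a difference of -1.09 ± 0.07 or 2.13-fold lower (adjusted p = 0.00391). Endod1, which encodes a protein with an endonuclease domain, stood at 9.62, 9.32 and 9.24 against 10.89, 10.67, 10.80 and 10.53 (-1.29 ± 0.10, adjusted p = 0.00548). All 3 genes were lower in both treatments by similar amounts, Vkorc1 by -1.32 in PBS and -1.29 with glucagon and Hdgf by -1.07 and -1.11.

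The other 11 of the 15 genes with the lowest called differences, Wdr5 aside, differed by -1.31 to -1.01. Rab5b, a GTPase of early endosomes, differed by -1.25 ± 0.18, and Bloc1s6, a subunit of the BLOC-1 complex of lysosome-related organelles, by -1.09 ± 0.16. Bet1, a SNARE of transport between the endoplasmic reticulum and the Golgi, differed by -1.06 ± 0.15, and Aph1a, a subunit of gamma-secretase, by -1.08 ± 0.14. Aph1a stood at 10.63, 10.83 and 10.31 against 11.82, 11.52, 11.78 and 11.57, with no overlap. Cdk6, a kinase of the G1 phase, fell by 1.04 on the log2 scale (SE 0.13, adjusted p = 0.0118). The cytoskeletal keratin gene Krt20 stood at 7.22, 8.09 and 7.07 against 8.99, 8.63, 8.84 and 8.56, with shWDR5 glucagon A closest to the shNS samples (-1.31 ± 0.25, adjusted p = 0.031). The remaining genes were Asb5, Msrb3 (a methionine sulfoxide reductase), H60b (a ligand of an activating receptor of natural killer cells), Lce6a and Sec14l4, and H60b lay below the expression filter of 7.12 in shWDR5, at a mean of 6.35. Of the 15 genes 6 passed without shNS glucagon A (adjusted p from 0.011 to 0.12), 8 without shWDR5 glucagon B, 13 or 14 without another shNS sample, and Wdr5 alone without shWDR5 PBS A (adjusted p from 0.0377 to 0.26).

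Il1f9, which encodes interleukin-36 gamma, an epithelial cytokine of the interleukin 1 family, had the largest called difference of all genes in these 7 samples. It stood at 9.70, 9.12 and 9.80 in shWDR5 against 7.06, 7.35, 6.95 and 7.47 in shNS. Every shWDR5 value lay above every shNS value, by 2.35 ± 0.20 or 5.09-fold (adjusted p = 0.0064). Its shNS mean was 7.21, near the expression filter of 7.12, and its shKAT2B values of 6.72, 5.88 and 6.71 lay below it. Il1f9 therefore passed the filter only through the shWDR5 samples in which it is high, and its fold is measured from near that filter. Ripply1, a transcriptional corepressor known from somite formation, stood at 9.06, 9.32 and 9.12 against 7.90, 7.63, 7.92 and 7.81 (1.33 ± 0.10, adjusted p = 0.00493). Serpinb8, an intracellular serine protease inhibitor, stood at 9.99, 9.79 and 9.91 against 8.84, 8.86, 8.60 and 8.75 (1.16 ± 0.08, adjusted p = 0.00391). For these 3 genes the within-arm spread was small beside the gap between arms.

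The other 12 of the 15 highest called genes rose by 1.11 to 1.91. Of these, 6 belong to cell division: Depdc1a (1.91 ± 0.43), Cep55 of the midbody (1.29 ± 0.26), Ccnf, an F-box cyclin (1.22 ± 0.25), and the mitotic kinesins Kif11 (1.16 ± 0.27), Kif20a (1.15 ± 0.22) and Kif18b (1.11 ± 0.23). Their standard errors are larger than those of Ripply1 or Serpinb8. Depdc1a stood at 7.05 and 7.02 in shNS samples A and at 8.17 and 8.12 in samples B, and at 9.72, 8.70 and 9.98 in shWDR5. The samples therefore overlap neither between arms nor between letters within shNS. Also higher were the chromatin protein gene Hmgb2 (1.16 ± 0.22), the membrane protease gene Tmprss11f (1.74 ± 0.21), the calcium-binding protein gene S100g (1.58 ± 0.22), the oxidized lipoprotein receptor gene Olr1 (1.21 ± 0.21), and the adhesion genes Flrt2 (1.15 ± 0.17) and Pcdh9 (1.12 ± 0.17). S100g and Olr1 lay at means of 7.01 and 6.68 in shNS, below the filter, so they were tested because of the samples in which they are high. Of the 15 genes 11 passed without shNS PBS A, 9 without shNS PBS B, 7 without shNS glucagon B, 3 without shNS glucagon A, 3 without shWDR5 glucagon B and 0 without shWDR5 PBS A (adjusted p from 0.0896 to 0.322).

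**Figure D3:**
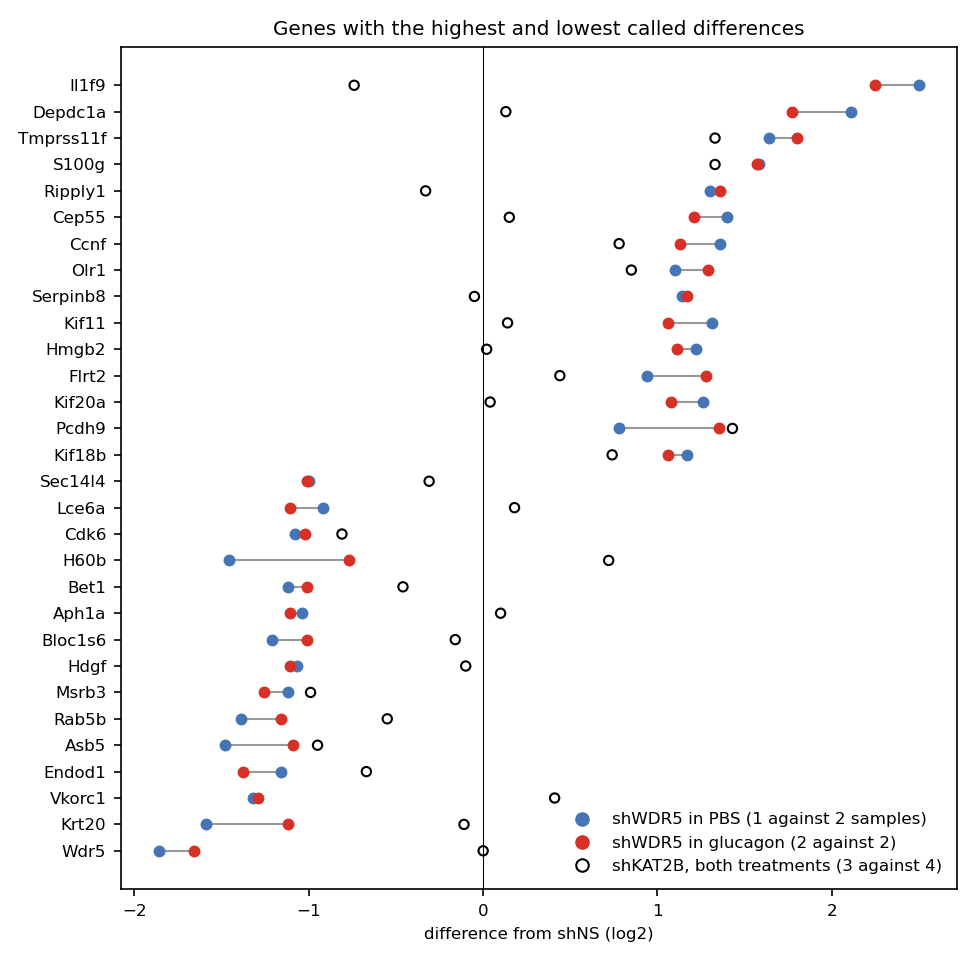
Difference from shNS (log2, x axis) of the 15 highest and 15 lowest called genes (y axis): shWDR5 in PBS in blue, shWDR5 with glucagon in red and shKAT2B over both treatments as open circles. Blue and red points lie on the same side of 0 for all 30 genes, which the choice of these genes required. Only genes whose arms did not overlap, in the same direction in both treatments, were taken. Il1f9 stands at 2.50 and 2.25, with shKAT2B at -0.74.

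RefSeq promoter windows on build GRCm38.p6 were available for 9236 of the tested genes, and the 250 bases before the transcription start are shown for 3 genes that were given with the comparison. Capitals mark matches on either strand to the E-box (CACGTG), the CRE core (TGACG), the CCAAT box (CCAAT), the GC box (GGGCGG), the TATA box (TATAAA) and the cell cycle homology region, CHR (TTTGAA), the last added after the values were seen.
Vkorc1 (chr7:127895618-127895867, minus strand): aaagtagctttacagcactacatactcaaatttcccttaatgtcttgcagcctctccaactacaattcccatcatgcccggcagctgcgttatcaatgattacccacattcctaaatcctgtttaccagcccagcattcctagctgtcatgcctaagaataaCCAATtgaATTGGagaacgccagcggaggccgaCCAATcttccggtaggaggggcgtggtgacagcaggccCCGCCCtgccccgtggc
Hdgf (chr3:87906071-87906320, plus strand): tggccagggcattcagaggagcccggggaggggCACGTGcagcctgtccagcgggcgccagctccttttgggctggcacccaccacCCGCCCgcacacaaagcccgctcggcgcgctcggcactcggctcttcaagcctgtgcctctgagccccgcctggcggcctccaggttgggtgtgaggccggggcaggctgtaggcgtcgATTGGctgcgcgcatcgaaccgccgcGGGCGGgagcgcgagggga
Il1f9 (chr2:24186226-24186475, plus strand): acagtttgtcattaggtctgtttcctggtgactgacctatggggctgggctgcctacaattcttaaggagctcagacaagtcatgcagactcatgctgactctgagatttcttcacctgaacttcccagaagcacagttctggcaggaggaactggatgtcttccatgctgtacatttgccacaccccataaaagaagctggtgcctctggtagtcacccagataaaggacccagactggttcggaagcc
The Vkorc1 window holds 3 CCAAT boxes and 1 GC box, and the Hdgf window 1 E-box, 1 CCAAT box and 2 GC boxes. The Il1f9 window holds 0 matches to these letters and 1 CpG, against 9 CpG for Vkorc1, 26 for Hdgf and a median of 16 over all windows. A CCAAT box was found in 36.2 percent of all windows, a GC box in 60.3 percent and an E-box in 8.6 percent.

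Transcripts of the complexes that WDR5 scaffolds did not follow it. Of 22 tested members of the MLL and SET1 complexes only Wdr5 was called, beside 7.08 percent of all genes. The median was 0.08, against -0.01 over all genes. The core partners Rbbp5, Ash2l and Dpy30 differed by 0.00 ± 0.07, 0.10 ± 0.08 and 0.10 ± 0.18 (adjusted p = 0.996, 0.52 and 0.787). Rbbp5 stood at 9.29, 9.27 and 9.17 in shWDR5 and between 9.21 and 9.29 in shNS, so the arms overlapped. Among the methyltransferase genes the differences ran from -0.12 ± 0.11 for Kmt2d to 0.21 ± 0.07 for Setd1b, and Kdm6a, a demethylase of lysine 27, stood at 0.27 ± 0.07 (adjusted p = 0.0619). With the replicate block 1 member was higher and 3 lower, beside 11.5 and 15.9 percent of all genes. With the sample set as a term 8 were higher and 2 lower, at the same median as in the main fit, beside 21.1 and 19.4 percent. Of 22 other WDR5 partners, in the NSL and ATAC complexes and around MYC, Myc rose by 0.38 ± 0.08 and the chromatin remodeller gene Chd7 by 0.40 ± 0.09 (adjusted p = 0.0402 and 0.0494), 0 were lower, and the median was 0.06, or -0.01 without shWDR5 glucagon A. Myc was higher in shWDR5 in PBS, at 12.33 against 12.13 and 12.00, and with glucagon, at 11.89 and 11.64 against 11.31 and 11.30. Left out singly, shNS PBS B, either shNS glucagon sample, shWDR5 PBS A and shWDR5 glucagon B each ended both calls (highest adjusted p = 0.246), and Chd7 also missed without either remaining sample. Chd7, with 30 features, missed as well under quantile normalization, median centring, no filter and no trend, and over the mean of its features it differed by 0.29 (adjusted p = 0.141). Myc missed with no trend.

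Genes of mitosis were higher as a group. Of 29 measured genes of mitosis and the spindle 8 rose and 0 fell (beside 3.03 percent higher over all genes), all 29 had a value above 0, and the median was 0.89, against -0.01 over all genes. Cdk1, the kinase that drives entry into mitosis, stood at 11.26, 11.21 and 11.38 in shWDR5 against 10.76, 10.74, 10.56 and 10.78 in shNS, which is above every shNS value (0.58 ± 0.08, adjusted p = 0.0146). Cenpf, a kinetochore protein, stood at 8.06, 8.14 and 7.98 against 7.31, 7.30, 7.42 and 7.44 (0.68 ± 0.08, adjusted p = 0.0106). Both were even across the letters, unlike most of the list.
The mean level over the 29 genes was 9.0 in both shNS samples A and 9.68 and 9.63 in shNS PBS B and glucagon B. In shWDR5 it was 10.34 in PBS A, 9.79 in glucagon A and 10.40 in glucagon B. Samples of the first set were thus lower in both arms, and each shWDR5 sample was above every shNS sample. The median difference within the sets was 0.79 with glucagon in the first, 0.77 with glucagon in the second and 0.67 in PBS in the second. With the replicate block all 29 were called higher, at a median of 0.99, beside 11.5 percent of all genes. The block groups shWDR5 PBS A with the other samples A, although it lay in the second set. With the sample set as a term all 29 were also called higher, at a median of 0.76, beside 21.1 percent of all genes.

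Of 29 measured genes of DNA replication and the G1 to S transition 3 rose and 0 fell, beside 3.03 percent of all genes higher. The median was 0.27, or 0.17 without shNS glucagon A, and 26 values were above 0. The 3 called were the replication licensing genes Cdt1 (0.40 ± 0.07), Mcm7 (0.38 ± 0.06) and Mcm3 (0.39 ± 0.08). With the block 20 were higher, beside 11.5 percent of all genes. The within-set medians were 0.29, 0.14 and 0.16 in the order used for mitosis. None of the 11 called genes of these lists passed without shWDR5 PBS A (adjusted p from 0.142 to 0.322) or shNS glucagon A (0.0637 to 0.164), and Cenpf alone passed without shWDR5 glucagon B. Without shNS PBS A, shNS PBS B, shNS glucagon B or shWDR5 glucagon A 6, 3, 4 and 9 passed. Quantile normalization or median centring left 4 mitosis genes called in place of 8.

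The 250 bases before the start of Cdk1 and Cenpf are shown because CCAAT boxes were common in this list, at 80.0 percent of its 25 windows, with the same capitals as above.
Cdk1 (chr10:69352913-69353162, minus strand): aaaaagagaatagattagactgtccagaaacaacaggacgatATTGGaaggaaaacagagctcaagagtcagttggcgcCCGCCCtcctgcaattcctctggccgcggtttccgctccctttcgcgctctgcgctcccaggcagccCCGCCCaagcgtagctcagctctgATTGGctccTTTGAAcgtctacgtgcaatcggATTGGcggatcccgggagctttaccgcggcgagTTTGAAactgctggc
Cenpf (chr1:189688087-189688336, minus strand): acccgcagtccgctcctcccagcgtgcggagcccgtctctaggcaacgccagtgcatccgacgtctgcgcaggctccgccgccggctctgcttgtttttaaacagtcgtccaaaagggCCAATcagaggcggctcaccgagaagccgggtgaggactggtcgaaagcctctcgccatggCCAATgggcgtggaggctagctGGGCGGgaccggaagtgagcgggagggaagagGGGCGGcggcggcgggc
Cdk1 holds 3 CCAAT boxes, 2 GC boxes and 2 CHR matches, and Cenpf 2 CCAAT boxes and 2 GC boxes. The window of Cep55, not shown, holds 6 GC boxes and neither a CCAAT box nor a CHR match. CCAAT boxes also stood in 77.8 percent of windows of the endoplasmic reticulum chaperone and ATF4 list. In the DNA replication list the share was 66.7 percent, so a high share was not particular to mitosis genes. A CHR match was found in 32.0 percent of the mitosis windows and in 10.3 percent of all windows. Among genes called higher 42.9 percent of windows held a CCAAT box and 16.4 percent a CHR match, and among genes called lower 34.9 and 8.5 percent. An E-box stood in 12.3 percent of windows of genes called higher and in 5.7 percent of those called lower.

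Markers of other liver cells were examined beside the mitosis genes, and none of the Kupffer, leukocyte or endothelial markers was called. All 17 measured markers of Kupffer cells and leukocytes had values above 0 and 0 were called, with a median of 0.26, and 18 of 19 endothelial markers were above 0 with 0 called, with a median of 0.22. Leaving out 1 sample moved these medians between 0.18 and 0.43 and between 0.15 and 0.33, highest without shNS glucagon B. The mean level of the Kupffer and leukocyte markers ranged from 8.61 to 9.32 in shNS and from 8.92 to 9.48 in shWDR5, so the arms overlapped over both sets. Within the first set it was 8.92 in shWDR5 against 8.62 and 8.61, and within the second 9.43 and 9.48 against 9.17 and 9.32. Endothelial markers ranged from 8.17 to 8.58 in shNS and from 8.32 to 8.72 in shWDR5. Within each set their mean was also higher in every shWDR5 sample than in the shNS samples. The letter block called 9 Kupffer and leukocyte markers and 8 endothelial markers higher, beside 11.5 percent of all genes. With the sample set as a term 8 and 9 were higher, beside 21.1 percent. Within sets the Kupffer and leukocyte medians were 0.24 and 0.14 with glucagon and 0.25 in PBS. In shKAT2B samples the same markers stood at medians of 0.43 and 0.30 above shNS, while the mitosis list stood at 0.02. Fewer or more cells of a type cannot be told apart from less or more RNA per cell in these samples, and the part of other cells in the mitosis result was not tested. Of 18 stellate cell and fibroblast markers 1 was lower, Tagln at -0.31 ± 0.07, and the median was 0.03, turning to -0.09 without shWDR5 glucagon A.

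**Figure D4:**
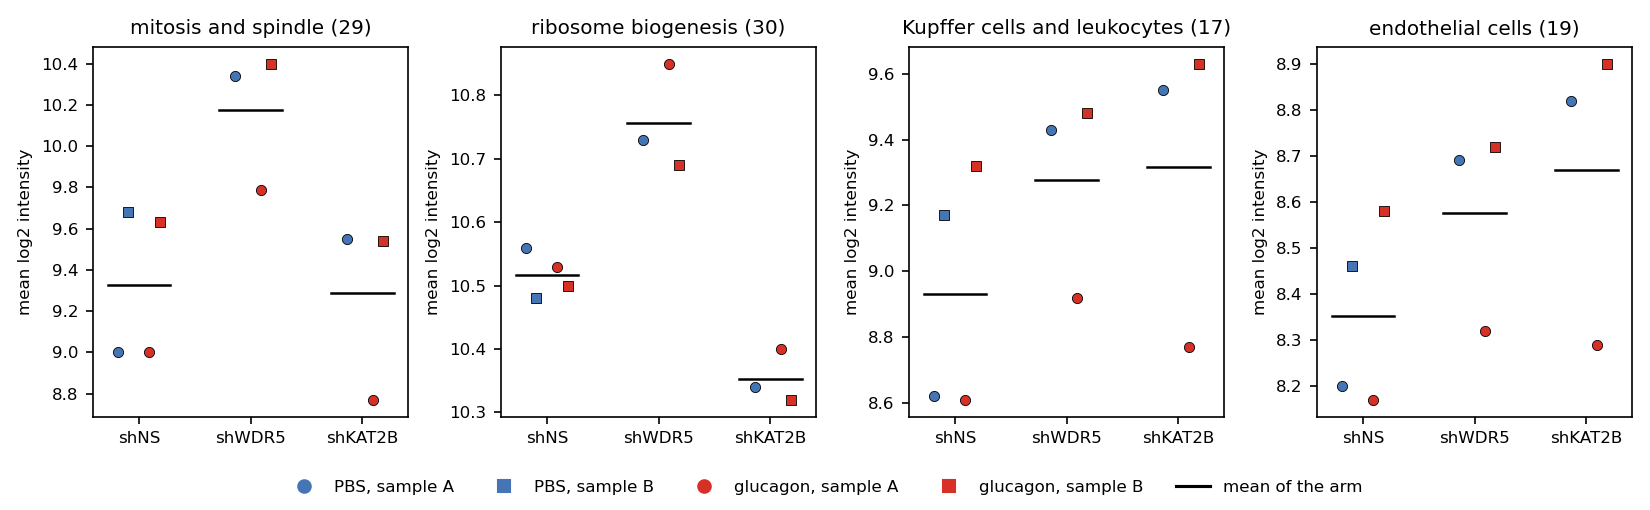
Mean log2 intensity (y axis) over the measured members of 4 gene lists in every sample, by hairpin (x axis), with colours and symbols as in the plot of lead genes. Mitosis genes are at 9.0 to 9.68 in shNS and 9.79 to 10.40 in shWDR5, and ribosome biogenesis genes at 10.48 to 10.56 and 10.69 to 10.85, while the other-cell markers overlap between arms.

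Several genes that build ribosomes rose, while genes of the ribosome itself did not. Of 30 measured ribosome biogenesis genes 7 rose and 0 fell (17 and 0 with the replicate block), beside 3.03 percent and 11.5 percent of all genes higher, 28 had a value above 0, and the median was 0.26. Their mean level was 10.56, 10.48, 10.53 and 10.50 in shNS and 10.73, 10.85 and 10.69 in shWDR5, with no overlap between arms. Samples A stood above samples B in each of the 3 groups that hold both, by the most in shWDR5 glucagon. Dkc1, the pseudouridine synthase of small nucleolar ribonucleoproteins, stood at 10.31, 10.46 and 10.42 against 9.84 to 9.95 (0.49 ± 0.07, adjusted p = 0.0147). Nolc1, a nucleolar phosphoprotein, rose by 0.40 ± 0.07, the nucleolar GTPase gene Gnl3 (nucleostemin) by 0.37 ± 0.07 and Utp20 of the small subunit processome by 0.34 ± 0.07. Of 25 cytosolic ribosomal protein genes 2 fell, Rps7 by 0.32 and Rps3 by 0.37 on the log2 scale, 0 rose, and the median was -0.07 (7 lower with the block). The median of 32 mitochondrial ribosomal protein genes was -0.03 with 0 called by limma. Of 31 subunits of oxidative phosphorylation only Ndufa4 was called (-0.32 ± 0.05), and the median was -0.09 (7 lower with the block). Over all genes 4.05 percent were lower, and 15.9 percent with the block.

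In the endoplasmic reticulum chaperone, unfolded protein response and ATF4 list, 2 of 30 genes rose and 0 fell, at a median of 0.13, with 26 values above 0. Over all genes 3.03 percent were higher, or 11.5 percent with the block. Dnajb9, a chaperone of the BiP system, rose by 0.59 ± 0.10 and Hsp90b1 (GRP94) by 0.37 ± 0.08, and 10 genes were higher and 1 lower with the block. Quantile normalization called 5 members higher and median centring 6. Of 17 aminoacyl-tRNA synthetase genes Vars rose by 0.32 ± 0.06 and the median was 0.01. Among the 13 called genes of the lists from ribosome biogenesis to tRNA synthetases 0 passed without shWDR5 PBS A, shNS glucagon A or shWDR5 glucagon B (adjusted p from 0.142 to 0.367, 0.0722 to 0.165 and 0.0607 to 0.144), and 7, 5, 3 and 6 passed without shNS PBS A, shNS PBS B, shNS glucagon B or shWDR5 glucagon A.

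**Figure D5:**
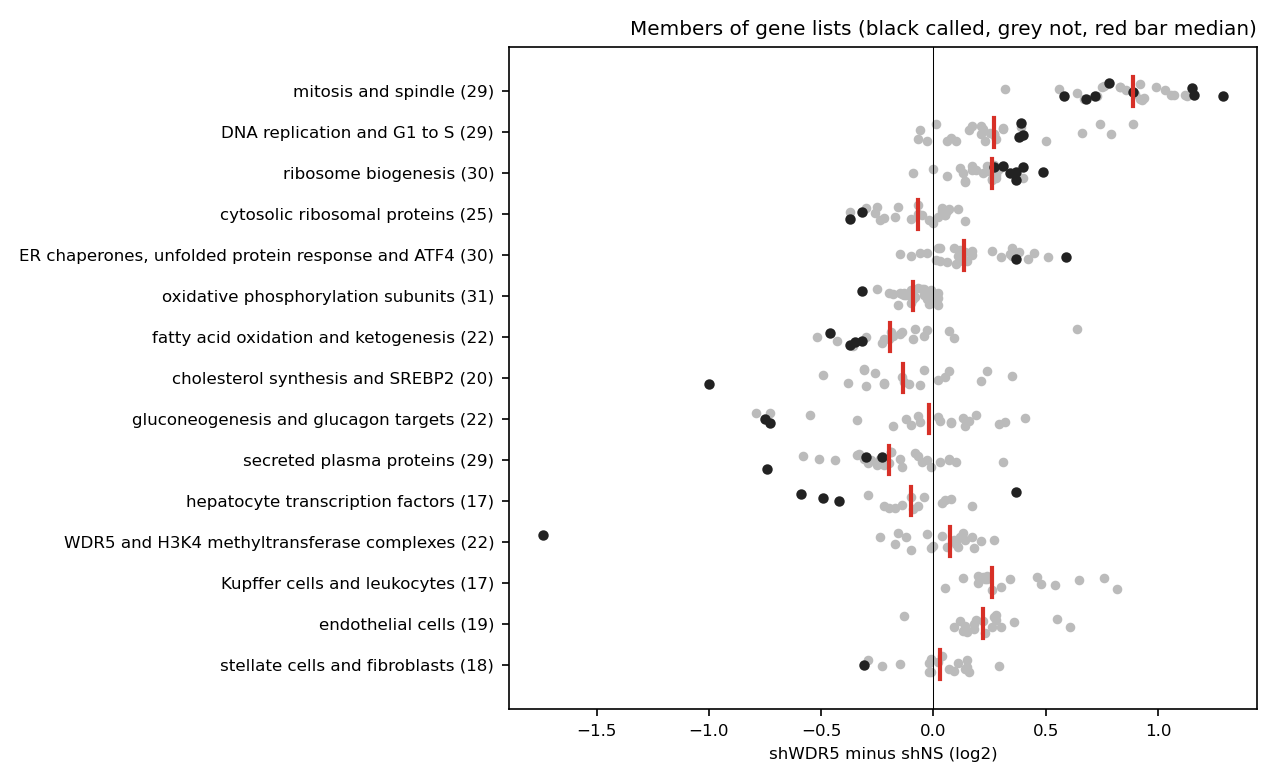
Difference between shWDR5 and shNS (log2, x axis) of each tested member of 15 gene lists (y axis, number tested in brackets). Black points are called, grey points are not, red bars are medians and the vertical spread within a list is arbitrary; the mitosis median lies at 0.89 and the median of secreted plasma proteins at -0.20.

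Several genes of the differentiated hepatocyte were called, and more of them were lower than higher. Of 17 hepatocyte transcription factors 3 fell and 1 rose (5 and 1 with the block), beside 4.05 percent of all genes lower and 15.9 percent with the block. Their median was -0.10, and -0.18 without shNS PBS B. Foxa3, a forkhead factor of endoderm, fell by 0.59 on the log2 scale (SE 0.09), the xenobiotic receptor gene Nr1i2 by 0.49 (SE 0.11) and Prox1 by 0.42 (SE 0.10), and Onecut2 rose by 0.37 ± 0.05. Of 29 secreted plasma protein genes 3 fell and 0 rose (8 and 0 with the block), 24 had values below 0, and the median was -0.20, or -0.13 without shWDR5 glucagon A. These were Serpind1, heparin cofactor II (-0.74 ± 0.16), Alb (-0.30 ± 0.07) and transferrin, Trf (-0.23 ± 0.05). The list median was -0.05 in PBS and -0.28 with glucagon. After quantile normalization 1 member was called lower and after median centring 0. Against the same shNS samples the shKAT2B medians were -0.30 for the transcription factors and -0.43 for the plasma proteins. A lower level in these lists was therefore not particular to shWDR5.

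Fatty acid oxidation and ketogenesis had 4 of 22 genes lower and 0 higher, a median of -0.19 and 19 values below 0. Over all genes 4.05 percent were lower, or 15.9 percent with the block. Echs1, the enoyl-CoA hydratase, differed by -0.46 ± 0.10, the acyl-CoA dehydrogenase genes Acadvl and Acads by -0.37 ± 0.08 and -0.35 ± 0.08, and Hadh by -0.32 ± 0.06. The median was -0.20 in PBS and -0.19 with glucagon, and 12 were lower and 1 higher with the block. Of 19 genes of lipogenesis 4 fell and 2 rose at a median of -0.02, or 0.05 without shWDR5 glucagon A (4 lower and 6 higher with the block). Those named fell: Txnip by 0.72 on the log2 scale, liver pyruvate kinase Pklr by 0.60, malic enzyme Me1 by 0.33 and the acyltransferase gene Gpam by 0.30. In median-centred samples 2 were lower and 1 higher, and Me1 and Gpam missed. Of 20 genes of cholesterol synthesis only Hsd17b7 was called, at 9.37, 9.20 and 9.28 against 10.03, 10.58, 10.03 and 10.54 (-1.0 ± 0.17, adjusted p = 0.022). The cholesterol list had a median of -0.14, which was 0.03 without shNS glucagon B and -0.24 without shNS glucagon A. The block called 3 higher and 4 lower, and the sample set as a term 2 higher and 12 lower. With that term 21.1 percent of all genes were higher and 19.4 percent lower.

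Among 22 genes of gluconeogenesis and glucagon response 2 fell and 0 rose, at a median of -0.02, or -0.10 without shWDR5 PBS A (4 lower and 1 higher with the block). The shares lower over all genes were 4.05 percent, and 15.9 percent with the block. Creb3l3, a membrane-bound transcription factor of the fasted liver, stood at 8.16, 8.15 and 8.15 against 8.71, 8.96, 8.79 and 9.05, below every shNS sample (-0.73 ± 0.10, adjusted p = 0.015). Slc37a4, the glucose-6-phosphate transporter of the endoplasmic reticulum, stood at 8.0, 8.37 and 7.83 against 8.87, 8.64, 8.97 and 8.71 (-0.75 ± 0.15, adjusted p = 0.0333). None of the 20 called genes in these 6 lists of hepatocyte identity and metabolism passed without shWDR5 PBS A (adjusted p from 0.142 to 0.349), shNS glucagon A (0.0637 to 0.187) or shWDR5 glucagon B (0.0655 to 0.162). With another sample left out 2 to 13 of the 20 passed.

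Called members of the other lists, here and in the next paragraph, stand beside 7.08 percent called over all genes. With the block that share was 27.4 percent, and with the sample set as a term 40.5 percent. The vitamin K cycle list, with the clotting factors it serves, held Vkorc1 as its only called gene of 12, at a median of -0.23, and with the block 6 were lower and 2 higher. Of 11 genes of gamma-secretase and its substrates Aph1a fell and Notch1 rose by 0.37 ± 0.06, a call that Notch1 kept only without shWDR5 glucagon A when samples were left out (highest adjusted p = 0.234, without shWDR5 PBS A). Il1f9 was the only called gene of 8 in the interleukin 1 family (4 higher with the block). Tdo2, which opens the tryptophan ring, was the only called gene of 19 in the urea cycle and amino acid list, at 11.04, 10.79 and 11.08 against 10.15, 10.18, 10.38 and 10.38 (0.68 ± 0.10). The oxysterol hydroxylase gene Cyp7b1 fell by 0.62 on the log2 scale (1 of 13 cytochromes P450), the drug efflux pump gene Abcb1b rose by 0.63 ± 0.09 (1 of 11 transporters) and Gstm1 fell by 0.25 (1 of 24 NRF2 and glutathione genes).

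Of 23 p53 targets 4 rose and 1 fell, at a median of 0.11, or 0.04 without shWDR5 glucagon A (5 and 5 with the block, 9 and 4 with the sample set as a term): Trp53inp1 by 0.46 ± 0.07, Gadd45a by 0.39 ± 0.07 and Btg2 by 0.30 ± 0.06, while Ei24 differed by -0.59 ± 0.07. In the core clock list the repressor genes Ciart (0.80 ± 0.14) and Cry1 (0.41 ± 0.08) rose and the casein kinase genes Csnk1e (-0.40 ± 0.07) and Csnk1d (-0.32 ± 0.07) fell, 4 of 19 genes. Of 26 histone and chromatin enzyme genes the methyltransferase genes Ezh2 (0.43 ± 0.08) and Dot1l (0.39 ± 0.09) rose and 0 fell. Atg7, which starts autophagosome conjugation, fell by 0.50 on the log2 scale (1 of 30 lysosome and autophagy genes), and Psmd11 by 0.29 (1 of 31 proteasome subunits). Of 17 keratin and dedifferentiation genes Krt20 and Anxa2 (-0.22 ± 0.05) fell and 0 rose (8 lower with the block). Of 24 interferon-stimulated genes and 29 acute phase and NF-kB genes 0 were called by limma, with 1 higher and 1 lower, and 3 higher and 6 lower, under the block. With the sample set as a term these were 9 and 1, and 3 and 12. The interferon median was 0.02, but -0.17 without shWDR5 glucagon A and 0.14 without shWDR5 glucagon B. None of the called members of the lists from amino acid breakdown to keratins, with Tagln, passed without shWDR5 PBS A (adjusted p from 0.115 to 0.377), shNS glucagon A or shWDR5 glucagon B, and 3 to 13 of these 20 did without another sample.

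Whether glucagon changed the effect of the hairpin was tested as an interaction, in a fit that left the sample set in its error. Fewer genes fell under an unadjusted p of 0.05 than that threshold admits without any effect, so the test was conservative. A lack of calls there does not show that the effect was the same in both treatments. No gene was called (0 of 11480, 0 percent; limma, 18 genes at an unadjusted p under 0.05), with shWDR5 PBS at 1 sample. With the replicate block 1100 genes were called (9.58 percent). The block groups the only shWDR5 PBS sample with the samples A, although it lay in the second set with the samples B. A mismatch of letters and an interaction therefore cannot be told apart in that count. With the sample set as a term 1 gene was called, Slc7a2, the cationic amino acid transporter, at -0.70 (adjusted p = 0.0377). Slc7a2 stood at 9.55 and 9.55 in shNS PBS and 10.53 in shWDR5 PBS, and at 11.64 and 11.66 in shNS glucagon and 11.93 and 11.93 in shWDR5 glucagon. The gap between arms was thus 0.98 in PBS and 0.28 with glucagon. The gluconeogenic genes Pck1 and G6pc and the coactivator gene Ppargc1a, named here outside the naming rule, did not pass. Pck1 stood at 9.13 and 9.50 in shNS glucagon A and B against 7.51 and 9.06 in shWDR5, and at 7.07 and 7.35 against 6.92 in PBS, an interaction of -0.74 ± 0.75 (unadjusted p = 0.364). G6pc stood at 9.11 and 9.99 with glucagon against 7.86 and 9.35, and at 6.07 and 5.56 in PBS against 5.85 (interaction -0.98 ± 0.84, unadjusted p = 0.285). In both genes shWDR5 glucagon A was the lowest glucagon sample and glucagon B overlapped shNS only for G6pc. In PBS all G6pc values lay below the expression filter of 7.12 and the Pck1 values lay around it. A fall in PBS therefore had little room to show in either gene. Ppargc1a was higher in shWDR5 by 0.52 in PBS and by 0.19 with glucagon (interaction -0.33 ± 0.16, unadjusted p = 0.087).

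The shWDR5 and shKAT2B samples were then compared directly, over all 10 samples, to see which differences also separated the hairpins. The arms differed in 2608 genes (22.7 percent), or 4137 with the replicate block (36 percent). The count of 2608 became 1442 when shWDR5 PBS A was left out and 1517 when shKAT2B PBS A was. Vkorc1 was -1.71 ± 0.08 below shKAT2B, where it stood at 10.67, 10.72 and 10.82, and Hdgf was -1.0 ± 0.07 below (adjusted p = 1.11e-05 and 5.18e-05). Il1f9 was 3.10 ± 0.25 above shKAT2B, where it stood at 6.72, 5.88 and 6.71 (adjusted p = 0.000147). The 15 highest and 15 lowest genes were chosen for extreme values in the same shWDR5 samples, so passing here is no separate support. The 9 of them that did not pass were Tmprss11f, S100g, Ccnf, Olr1, Pcdh9, Kif18b, Asb5, Msrb3 and Cdk6. Pcdh9 stood at 9.23, 9.96 and 9.67 in shWDR5 and at 9.92, 9.51 and 10.33 in shKAT2B (difference -0.30 ± 0.23, adjusted p = 0.387), and Msrb3 at 9.69, 9.61 and 9.36 and at 9.68, 10.11 and 9.54 (-0.22 ± 0.16, adjusted p = 0.376). These miss the threshold, which does not show that the hairpins act alike.

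By list, 15 of 29 mitosis genes and 19 of 30 ribosome biogenesis genes differed between the hairpins, beside 22.7 percent of all genes. The median differences of these lists were 0.90 and 0.37. Against shNS, the mitosis median was 0.89 in shWDR5 and 0.02 in shKAT2B, and the ribosome biogenesis median 0.26 and -0.16, with the shNS samples shared by both. Dkc1 stood at 9.20, 9.45 and 9.03 in shKAT2B, below its 10.31 to 10.46 in shWDR5 (1.17 ± 0.10, adjusted p = 0.000195). Tdo2 stood at 8.80, 8.86 and 8.99 in shKAT2B, 2.09 ± 0.10 below shWDR5 (adjusted p = 1.11e-05). Of hepatocyte transcription factors 2 of 17 and of secreted plasma proteins 6 of 29 differed between the hairpins. Against shNS, the shKAT2B median was -0.23 for gluconeogenesis, -0.22 for cholesterol synthesis, -0.10 for fatty acid oxidation and -0.07 for lipogenesis. In shWDR5 these medians were -0.02, -0.14, -0.19 and -0.02. Of the chaperone and ATF4 list 16 of 30 genes differed, of NRF2 and glutathione genes 16 of 24, and of Kupffer, leukocyte and endothelial markers 0 of 17 and 0 of 19 by limma. Against shNS, the NRF2 and glutathione median was -0.46 in shKAT2B and -0.03 in shWDR5. The chaperone and ATF4 median was -0.12 in shKAT2B and 0.13 in shWDR5.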

How the data were processed

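The deposited table holds 1 intensity per feature and sample on a linear scale, from 4.47 to 22694, and log2 of each value has exactly 2 decimals. Per the submitters' processing notes, Affymetrix Expression Console 1.1.1 was used, with the normalization not given in the sources used here. Values were taken as log2(intensity) with no pseudocount. Of 26913 features, 17873 carried 1 symbol, 1128 several and 7912 were unnamed here, and 17815 matched the RefSeq gene table. Each of 16401 genes was read from its feature with the highest mean, and the lowest 30 percent were left out. Arrays have no read depth, so the number of samples limits the precision.

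The fit used limma 3.58.1 in R 4.3.3 (lmFit, eBayes with trend) on 7 samples with treatment as a covariate and 4 residual degrees of freedom, with Benjamini-Hochberg adjustment over 11480 genes. A group with 1 sample was assumed to vary like the others. The script was tested on simulated data. Same-lettered samples deviated together (correlations of 0.84, 0.80 and 0.77 over 3 pairs of groups), so the letters were taken to pair the samples, although shWDR5 PBS A lay with the B samples in the second set. Block values stand beside results that they move. Tables were made in Python 3.11.15 (numpy 2.4.6, pandas 2.3.3) and figures in matplotlib 3.10.9.

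Named are Wdr5, Kat2b, Vkorc1, Hdgf and Il1f9, the 15 highest and 15 lowest called genes whose arms do not overlap within a treatment, up to 4 called members of each of 34 lists by p, all members of the WDR5 complex list and called interaction genes. The members and lists were chosen with earlier results of these data known. List counts and medians carry no test. Alternatives covered the scaling, pseudocount, filter, features, trend, block, sample set and each sample left out.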

Additional observations from a re-analysis of the deposited data

Results flagged for a closer look

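Features that no gene result uses also carried differences. In a fit on all features, 73 of 4380 tested features with no gene named here (1.67 percent, 24 higher and 49 lower) and 23 of 860 with several symbols (2.67 percent) passed an adjusted p below 0.05 (limma), against 527 of 12592 with 1 symbol (4.19 percent). The unnamed feature 10338865 stood at 9.71, 10.26 and 9.98 in shWDR5 and at 11.48, 11.19, 11.38 and 11.35 in shNS (-1.40 ± 0.12, adjusted p = 0.013), and at 11.47 to 11.55 in shKAT2B. Feature 10338128 differed by -1.33 ± 0.12 and feature 10342201 by -1.26 ± 0.25. Groups of 1 or 2 samples are too small to look for a sample far from the others.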

How the results depend on the processing

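The 813 genes called for shWDR5 became 3142 with the replicate block, 4648 with the sample set as a term and 1246 in a fit on all 10 samples (770 of the 813 shared). With the glucagon samples alone 0 passed (limma, 1223 at an unadjusted p under 0.05), and 0 in the second set alone (3600). Leaving out each sample gave 1 to 647. Other scalings, pseudocounts, filters, features and no trend gave 633 to 1095. The interaction count of 0 became 1100 with the replicate block and 1 with the set term, and stayed 0 under the other scalings, pseudocounts, filters, features, trend and all 10 samples, and without each sample other than shWDR5 PBS A. Without that sample, with glucagon alone or in the second set alone the interaction could not be fitted. The 2608 genes that separated shWDR5 from shKAT2B became 4137 with the replicate block, 5787 with the set term and 5193 in the second set alone, and 1442 to 2452 without a sample of either knockdown arm. Of the 84 called genes that meet the naming rule 0 changed sign. Wdr5 kept its call whichever sample was left out. Vkorc1, Hdgf, Il1f9, Ripply1, Serpinb8, Endod1, Msrb3 and Lce6a lost it only without shWDR5 PBS A. Of the 84 called, 16 missed in median-centred samples, 16 with no filter, 16 with no trend, 4 after quantile normalization and 1 with the mean of features. Ccnf, Mcm3, Nr1i2, Hadh, Cyp7b1 and Anxa2 missed in all 10 samples. The set was read from the same samples that the fit uses, and the second set holds 1 sample of each group. The cause of these changes was not tested. Few samples limit the precision: the median standard error was 0.10, and genes near the filter of 7.12 have little room to fall.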

Other observations

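Small nucleolar RNA genes, which guide ribosomal RNA modification, were grouped after their values were seen. Of 39 tested, 6 were called higher in shWDR5 and 0 lower, beside 3.03 percent of all genes higher, 31 had values above 0, and the median was 0.30, against -0.01 over all genes (0.37 in PBS, 0.17 with glucagon). Snora75 differed by 0.66, Snora33 by 0.53, Snord42b by 0.49, Snord52 by 0.40, Snora31 by 0.38 and Snord16a by 0.37. With the replicate block 14 were higher and 3 lower (11.5 percent of all genes higher and 15.9 percent lower), and with the sample set as a term 19 and 4 (21.1 percent higher and 19.4 percent lower). In shKAT2B the median was 0.19, and 5 of the 39 separated the hairpins, beside 22.7 percent of all genes. Snhg16 and Gas5, which host small nucleolar RNAs in their introns, stood at 0.43 and 0.40. Whether a feature separates a small nucleolar RNA from its host transcript was not tested. Of 52 microRNA genes 1 was called higher and 1 lower, Mir18 at 0.65 and Mir568 at -0.76, and the median was -0.01.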
